A study of Mus musculus with 19 samples.

Results

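Skeletal muscle contractile genes were followed in sciatic nerve samples, as a list of 40 genes whose products build and drive the sarcomere of skeletal muscle. The list was taken by name. Of the 40 genes, 39 had a probe set named for them alone, among 18193 genes measured in that way, and 37 lay above the intensity filter that left 13460 genes for testing. Xirp2 had no such probe set and is not analysed here, and Ampd1 and Cacna1s had mean intensities below the filter, so they are described without a test. By their known use in muscle fibres, 14 genes were taken as fast-fibre genes, 9 as slow-fibre genes and 17 as shared by both kinds of fibre.

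The tissue came from mice of the inbred strain DBA/2J, and each array held the nerve RNA of 1 mouse. Diabetic mice had received streptozotocin (STZ), a toxin of the insulin-producing beta cells, while rosiglitazone is a drug that activates PPAR gamma. The groups, named here by letters and the number in each title, were diabetic with STZ and rosiglitazone (DR, 5 arrays), diabetic with STZ and vehicle (DV, 5 arrays), non-diabetic with rosiglitazone (CR, 5 arrays) and non-diabetic with vehicle (CV, 4 arrays, 1 further array having failed the authors' quality control). Doses, ages and times of treatment are not given in the sources used here, and STZ diabetes models loss of insulin rather than insulin resistance.

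A skeletal muscle fibre shortens when thick filaments of myosin pull on thin filaments of actin, which are anchored at the Z disc. Calcium released from the sarcoplasmic reticulum binds troponin on the thin filament and permits the pull, and a calcium pump takes it back. Fast and slow fibres use different genes for the same parts: their own myosin heavy and light chains, troponins, calsequestrins and binding proteins. A nerve trunk holds axons, Schwann cells, fibroblasts and vessels and no skeletal muscle fibres of its own, but it runs between muscles. In such bulk samples, fewer cells of a type and less RNA per cell cannot be told apart.

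The labelled tissue was checked first. Mbp, which encodes myelin basic protein, lay between 13.83 and 14.44 on the log2 intensity scale over the 19 arrays, and Pmp22, a protein of compact myelin, between 13.82 and 14.34. Not all myelin genes were as even. Mag, chosen after its values were seen, spanned 6.76 in CR715 to 9.78 in CV702. The arrays differed in other tissue markers and in RNA quality. For any set of genes, its level in an array is the mean, over the set, of each gene's log2 intensity minus that gene's mean over the 19 arrays. For 7 Schwann cell myelin genes the level was lowest in CR715 (-0.95), DR716 (-0.60) and DV707 (-0.55) and highest in CV702 (0.35). The level of 10 sensory neuron cell body genes, which mark ganglia, was between -3.74 and -3.11 in arrays DR716, DV706, DV707, DV709 and CR715, and between -0.05 and 2.20 in the other 14. RNA integrity was read from the Gapdh control probe sets, whose 3' signal outgrows the 5' signal in degraded RNA. Their log2 difference, 3' minus 5', was 3.71 in DV706, 4.38 in DV707, 1.75 in DR716 and between 1.00 and 1.37 elsewhere.

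The stretch just upstream of 4 genes is shown because these genes stand for the patterns described below, Acta1 for genes of all fibres, Myh4 for fast fibres and Tnnt1 and Myl3 for slow fibres. Each line gives the 250 bases before the annotated start, read 5′ to 3′ along the gene's strand, from RefSeq on build GRCm38.p6. Capitals mark matches on either strand to 5 motifs. The TATA box was searched as TATAAA. The E box that myogenic factors bind was searched as CAGCTG. The MCAT element was searched as CATTCC. The CArG box and the MEF2 site were searched by their consensus, and a match to one motif may overlap a match to another.
Acta1: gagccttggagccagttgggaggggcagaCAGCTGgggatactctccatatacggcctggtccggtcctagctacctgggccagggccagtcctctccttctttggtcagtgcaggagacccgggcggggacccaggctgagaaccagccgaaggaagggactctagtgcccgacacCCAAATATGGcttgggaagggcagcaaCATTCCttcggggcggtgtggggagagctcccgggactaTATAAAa
Myh4: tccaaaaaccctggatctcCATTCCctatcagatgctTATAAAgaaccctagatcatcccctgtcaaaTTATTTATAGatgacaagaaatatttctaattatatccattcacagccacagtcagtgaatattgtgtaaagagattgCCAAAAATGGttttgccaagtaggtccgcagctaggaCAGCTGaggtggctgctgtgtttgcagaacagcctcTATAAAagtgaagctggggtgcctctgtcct
Tnnt1: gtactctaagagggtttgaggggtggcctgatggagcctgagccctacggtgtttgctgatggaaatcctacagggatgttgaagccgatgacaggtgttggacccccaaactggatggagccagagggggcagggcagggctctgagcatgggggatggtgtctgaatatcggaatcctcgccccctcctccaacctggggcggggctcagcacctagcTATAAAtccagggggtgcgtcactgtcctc
Myl3: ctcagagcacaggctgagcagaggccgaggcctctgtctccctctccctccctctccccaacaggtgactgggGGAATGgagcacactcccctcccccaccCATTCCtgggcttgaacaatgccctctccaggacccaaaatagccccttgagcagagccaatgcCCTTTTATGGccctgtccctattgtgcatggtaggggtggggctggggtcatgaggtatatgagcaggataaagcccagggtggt

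The Acta1 window lies at chr8:123894776-123895025 on the minus strand, the Myh4 window at chr11:67237562-67237811 on the plus strand, the Tnnt1 window at chr7:4515976-4516225 on the minus strand and the Myl3 window at chr9:110763428-110763677 on the plus strand. Acta1 held an E box, a CArG box, an MCAT element and a TATA box, the CArG box at positions -73 to -64 counted back from the start. Myh4 held 7 matches of all 5 kinds, one TATA match at -179 to -174 lying inside the MEF2 match at -182 to -173. Tnnt1 held a TATA box alone, at -30 to -25, and Myl3 held 2 MCAT elements and a CArG box. Over 27025 genes with such a window, 14.3% held the TATA box, 14.7% the E box, 14.4% the MCAT element, 1.62% the CArG box and 3.42% the MEF2 site. Of the 40 listed genes 31 had a window, and no share over the list is given. These matches are a description of the letters and were not tested against the expression values.

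Muscle genes varied between arrays far more than most genes did. Over the 37 tested genes the median SD within groups was 1.82 on the log2 scale, against 0.319 over all 13460 genes tested, and the median distance between the lowest and highest array was 6.396, against 1.26. An SD within groups above 1 was found for 30 of the 37 genes and for 6.62% of all genes. Fast-fibre genes had a median SD of 2.36, slow-fibre genes 1.23 and shared genes 1.75. Differences between the 4 group means held a median of 13.9% of a muscle gene's variance, against 19.03% over all genes, so most of the spread lay between mice of the same group.

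**Figure D1:**
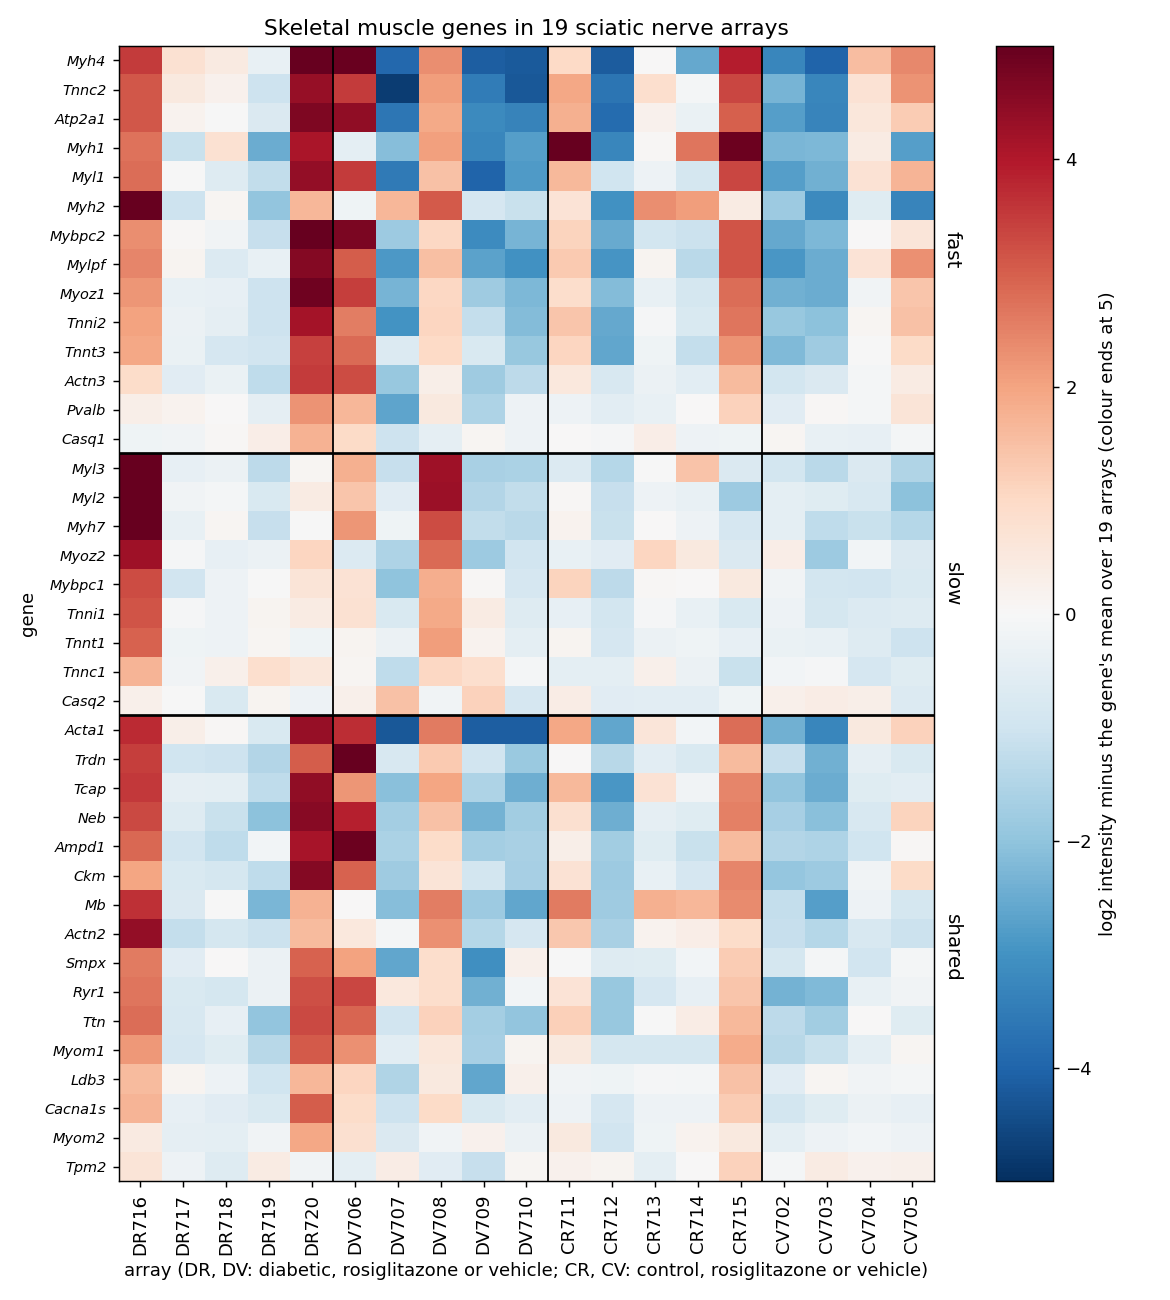
Log2 intensity of each of 39 skeletal muscle genes minus that gene's mean over 19 arrays, with genes in rows by fibre class and arrays in columns by group. Red is above the gene's mean and blue below, with the colour ending at a difference of 5. DR716, DR720, DV706, DV708 and CR715 are red over most genes, and DR716 and DV708 are the reddest in the slow block.

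Acta1, the actin of the skeletal muscle thin filament, showed this in single arrays. Its log2 intensity was 12.63, 9.20, 8.97, 8.14 and 13.27 in DR716 to DR720, 12.61, 4.67, 11.53, 4.81 and 4.78 in DV706 to DV710, 10.84, 6.32, 9.51, 8.78 and 11.73 in CR711 to CR715, and 6.52, 5.66, 9.42 and 10.08 in CV702 to CV705. Values were high in DR716, DR720, DV706, DV708 and CR715 and low in DV707, DV709 and DV710, and the ranges of all 4 groups overlapped. The lowest values lay below the test filter of 5.54, so no fold is given against them.

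The 5 arrays with the highest level over the 39 measured genes came from 3 groups. The level was 2.73 in DR716, 2.68 in DR720, 2.08 in DV706, 1.49 in DV708 and 1.45 in CR715, and the lowest was -1.66 in CR712. All 39 genes had an intensity above the test filter in DR716, DR720 and DV708, whereas 22 did in DV707 and in DV710. Sensory neuron markers were low in 3 of these 5 arrays (-3.54 in DR716, -3.11 in DV706 and -3.55 in CR715) and not in the others (1.72 in DR720 and 2.20 in DV708). They were also low in DV707 and DV709, where the muscle gene levels were -1.53 and -1.62.

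Fast and slow genes did not move as 1 block. The fast-gene level was highest in DR720 (3.89), followed by DV706 (2.72), CR715 (2.53), DR716 (2.30), DV708 (1.35) and CR711 (1.31). The slow-gene level was highest in DR716 (3.62) and DV708 (2.36), and the next was 0.74 in DV706. DR720 held the highest value of 12 of the 14 fast genes and of 0 of the 9 slow genes, whereas DR716 held the highest value of 8 of the 9 slow genes and of 1 fast gene. DR716 and DV708 held the top pair of values for 8 slow genes, with Casq2 the exception. DR716 and DV708 are 1 rosiglitazone-treated and 1 vehicle-treated diabetic mouse.

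**Figure D2:**
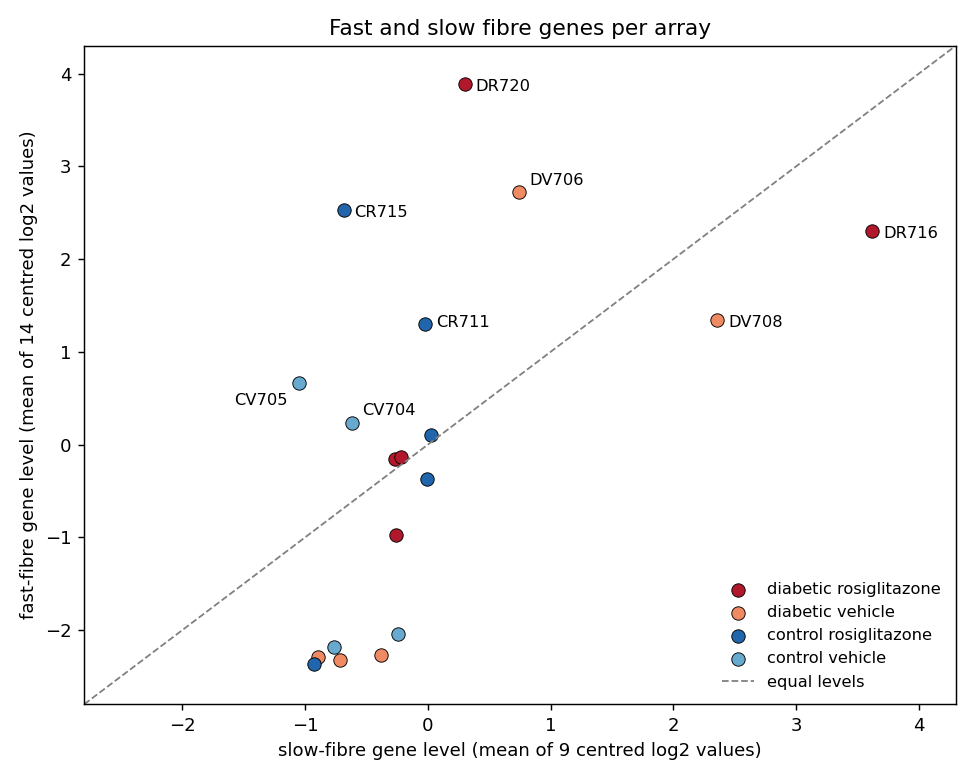
Fast-fibre gene level against slow-fibre gene level, each the mean of centred log2 values over 14 or 9 genes, with 1 point per array coloured by group and a dashed line of equal levels. DR720, DV706 and CR715 lie high and left of the line, DR716 and DV708 lie right of it, and the 6 arrays with a fast level under -2 include 3 DV, 1 CR and 2 CV arrays.

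The difference between fast and slow levels was 3.59 in DR720, 3.21 in CR715, 1.98 in DV706, 1.71 in CV705 and 1.32 in CR711. It was lowest in DV709 (-1.88), CV702 (-1.80) and DV707 (-1.61), and was -1.32 in DR716 and -1.01 in DV708. Per group it averaged 0.35 ± 1.91 in DR arrays, -0.78 ± 1.58 in DV arrays, 0.56 ± 1.78 in CR arrays (SD, n = 5 each) and -0.16 ± 1.71 in CV arrays (SD, n = 4). The group means differed by less than the spread within groups, and every group held arrays on both sides of 0. With 1 array left out, the DR mean was -0.26 without DR720 and 0.69 without DR716, and the DV mean was -1.36 without DV706. The CR mean was 0.08 without CR715 and 0.98 without CR712, and the CV mean was -0.69 without CV705 and 0.28 without CV702.

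A fast gene was paired with the slow gene of the same part in 9 pairs, each gene centred on its own mean: Tnnt3 with Tnnt1, Tnni2 with Tnni1, Tnnc2 with Tnnc1, Myh4 with Myh7, Mylpf with Myl2, Myl1 with Myl3, Casq1 with Casq2, Mybpc2 with Mybpc1 and Myoz1 with Myoz2. Myh4 alone stands for the fast heavy chains there. In DR720, DV706 and CV705 the fast gene was the higher of the pair in all 9, and in CR711 and CR715 in 8. In CV702 and CV703 the slow gene was the higher in all 9, and in DR716, DV707, DV708, DV709 and DV710 in 8. The slow side thus held both arrays with a high slow level (DR716 and DV708) and 5 arrays with a fast level under -2. With Myh1 or Myh2 in place of Myh4, the heavy chain pair lay on the slow side in DV706 (-2.71 and -2.41) and in CV705 (-1.32 and -1.86).

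Among thick filament genes, the myosin heavy chains differed in which arrays were high. Myh4, the heavy chain of the fastest (IIb) fibres, had log2 intensities of 11.73, 9.004, 8.70, 7.90 and 13.998 in DR716 to DR720, 13.19, 4.33, 10.57, 4.13 and 4.07 in DV706 to DV710, 9.27, 4.07, 8.26, 5.70 and 12.18 in CR711 to CR715, and 4.999, 4.26, 9.78 and 10.64 in CV702 to CV705. No other listed gene tested had a larger SD within groups (3.39). Its values ran from below the test filter of 5.54 to 13.998, and all 4 groups overlapped.

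Myh1, the heavy chain of IIx fibres, did not follow Myh4. It read 8.80, 4.97, 6.82, 3.59 and 10.14 in DR716 to DR720, 5.57, 3.96, 8.13, 2.80 and 3.31 in DV706 to DV710, 11.24, 2.82, 6.14, 8.74 and 10.996 in CR711 to CR715, and 3.79, 3.81, 6.47 and 3.33 in CV702 to CV705. It was highest in CR711 and CR715. In DV706 and CV705, where Myh4 was high, it read 5.57, its median over the arrays, and 3.33. With both genes centred, Myh4 minus Myh1 was 5.43 in DV706 and 5.13 in CV705, but -4.15 in CR711 and -5.22 in CR714.

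Myh2, the heavy chain of IIa fibres, read 11.87, 5.72, 6.87, 4.81 and 8.42 in DR716 to DR720, 6.56, 8.44, 9.85, 5.95 and 5.67 in DV706 to DV710, 7.44, 3.74, 9.09, 8.85 and 7.16 in CR711 to CR715, and 4.94, 3.59, 6.16 and 3.49 in CV702 to CV705. It was highest in DR716 and DV708, the same arrays as the slow genes, and its CV values were all at or below 6.16. Myh1, Myh2 and Myh4 are neighbouring, closely similar genes, and the Myh1 probe set carries the suffix for probes that can bind other transcripts, so signal between them could not be fully separated.

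Myh7, the slow heavy chain, read 12.40, 6.92, 7.38, 6.13 and 7.27 in DR716 to DR720, 9.49, 7.05, 10.53, 6.04 and 5.93 in DV706 to DV710, 7.45, 6.16, 7.31, 7.04 and 6.43 in CR711 to CR715, and 6.77, 6.01, 6.16 and 5.85 in CV702 to CV705. DR716, DV708 and DV706 stood above the other 16 arrays, none of which passed 7.45. All CR and CV arrays lay between 5.85 and 7.45.

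**Figure D3:**
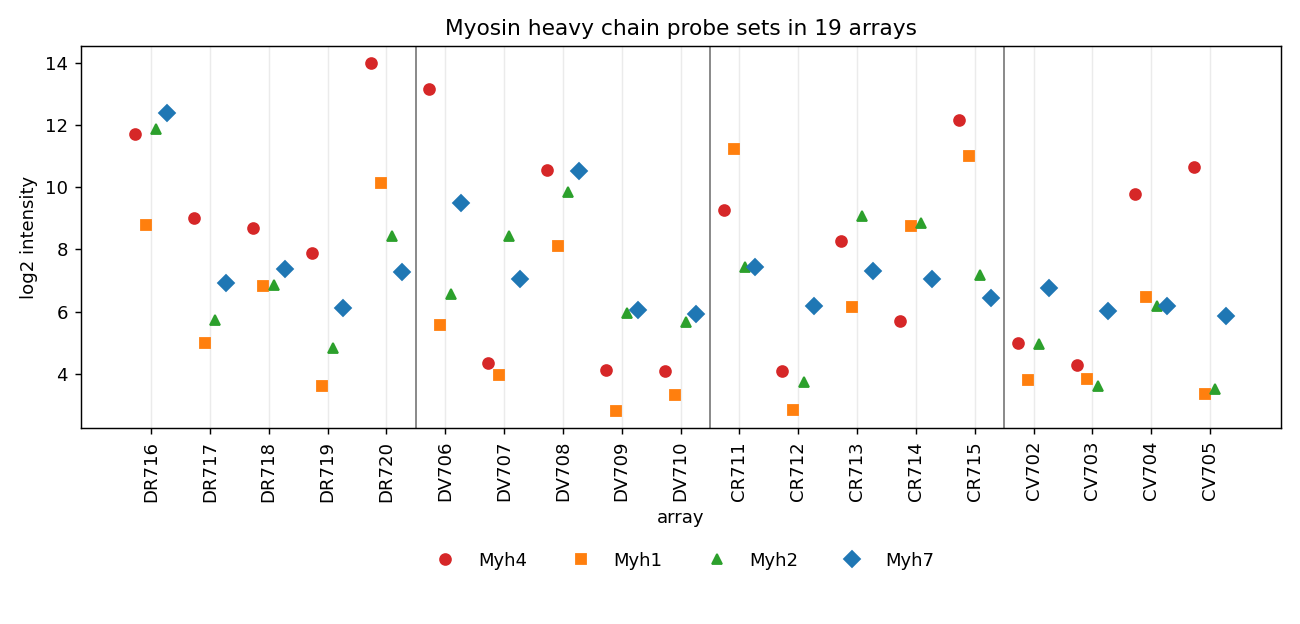
Log2 intensity of the 4 adult myosin heavy chain probe sets in each of 19 arrays, with vertical lines between the groups. Each symbol is to be compared along the arrays and not with the other symbols, since levels of different probe sets are not comparable. Myh4 circles are highest in DR720 and DV706, Myh1 squares in CR711 and CR715, and Myh2 triangles and Myh7 diamonds in DR716 and DV708.

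The light chains kept to the same fast and slow split. Mylpf, the fast regulatory light chain, had a lowest, median and highest value of 6.24, 9.39 and 13.86, and Myl1, the fast essential light chain, of 4.74, 8.49 and 13.12, both highest in DR720. Myl2, the slow regulatory light chain also used by the heart ventricle, had 5.24, 6.79 and 13.00, highest in DR716. Myl3, the slow essential light chain, reached 12.90 in DR716 and 10.93 in DV708, with 5.09 to 8.46 in the other 17 arrays. Myl2 read 11.57 in DV708, and no further array passed 8.68.

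The myosin-binding proteins and the giant and M-band proteins followed. Mybpc2, the fast binding protein, spanned 3.81 to 11.92 and was highest in DR720, and Mybpc1, the slow one, spanned 5.67 to 10.93 and was highest in DR716. Ttn, the elastic protein titin, had a lowest, median and highest value of 5.01, 6.59 and 10.28. Myom1 and Myom2, which tie thick filaments together at the M band, spanned 5.57 to 10.28 and 8.80 to 11.68, both highest in DR720.

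Troponins, the calcium switch of the thin filament, have a fast and a slow form of each subunit. Tnnt3, fast troponin T, read 12.52, 10.27, 9.77, 9.65 and 14.03 in DR716 to DR720, 13.43, 9.93, 11.57, 9.81 and 8.70 in DV706 to DV710, 11.67, 8.01, 10.37, 9.38 and 12.84 in CR711 to CR715, and 8.40, 8.83, 10.57 and 11.54 in CV702 to CV705. Tnnt1, slow troponin T, read 11.86, 8.69, 8.64, 9.01 and 8.67 in DR716 to DR720, 9.05, 8.61, 10.99, 9.07 and 8.43 in DV706 to DV710, 9.04, 8.07, 8.60, 8.67 and 8.47 in CR711 to CR715, and 8.58, 8.54, 8.25 and 7.86 in CV702 to CV705. In DR720, the array with the highest Tnnt3, Tnnt1 read 8.67, beside a median of 8.64 over the arrays. Tnnt1 stood apart in DR716 and DV708, while Tnnt3 was spread over all groups.

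Tnni2 and Tnnc2, fast troponin I and C, had lowest, median and highest values of 6.90, 9.61 and 14.07, and of 4.997, 10.25 and 14.11. Tnni1, slow troponin I, had 5.72, 6.39 and 9.79, and Tnnc1, the troponin C of slow and heart muscle, had 9.16, 10.33 and 12.12. Tnnc1 spanned 2.96 log2 units, against 9.11 for Tnnc2. Both fast genes were highest in DR720 and both slow genes in DR716.

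The remaining thin filament genes differed from each other. Neb, the giant protein nebulin that lines the thin filament, spanned 3.36 to 10.36 and was highest in DR720. Tpm2, the beta tropomyosin that smooth muscle and other cells also make, spanned only 11.19 to 13.51 and was highest in CR715. Its SD within groups (0.52) was the smallest of the 37 tested genes.

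Z disc genes classed as fast or slow followed the set of their class, and the shared ones differed in their highest array. Actn3, the alpha actinin of fast fibres, had a lowest, median and highest value of 6.88, 8.44 and 12.27 and was highest in DR720, whereas Actn2, the alpha actinin of all fibres, spanned 4.62 to 10.65 and was highest in DR716. Myoz1, the fast calsarcin, spanned 3.85 to 11.22 and was highest in DR720, and Myoz2, the slow and cardiac one, spanned 4.06 to 10.13 and was highest in DR716. Tcap, which caps titin, spanned 4.32 to 11.63, Ldb3 spanned 5.61 to 9.85, and Smpx, a small protein of striated muscle, spanned 4.88 to 10.89, all highest in DR720.

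Of the calcium handling genes, Atp2a1, the calcium pump of fast fibres, had a lowest, median and highest value of 5.05, 9.07 and 13.58 and resembled the other fast genes. Ryr1, the calcium release channel, spanned 6.31 to 12.07, and Trdn, triadin, which links that channel to calsequestrin, spanned 5.15 to 12.71. Both were highest in DV706 rather than DR720, though Ryr1 read 11.95 in DR720. The other probe set of Ryr1, of mean log2 intensity 5.40, was highest in DR720 (9.76). Cacna1s, the voltage sensor of the release channel, spanned 3.77 to 7.81, below the test filter in most arrays.

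The calsequestrins store calcium in the reticulum and had narrow ranges. Casq1, the fast form, had a lowest, median and highest value of 8.69, 9.63 and 11.45, a range of 2.76 log2 units. Casq2, the slow and heart form, read 11.11, 10.82, 10.11, 10.99 and 10.60 in DR716 to DR720, 11.12, 12.30, 10.65, 12.02 and 10.004 in DV706 to DV710, 11.21, 10.28, 10.31, 10.32 and 10.63 in CR711 to CR715, and 11.12, 11.23, 11.14 and 10.15 in CV702 to CV705. Casq2 was thus highest in DV707 and DV709, where Acta1 was 4.67 and 4.81 and the slow-gene level was -0.71 and -0.38.

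Pvalb, parvalbumin, buffers calcium in fast fibres and is also made by sensory neurons of muscle spindles. It read 11.84, 11.73, 11.56, 11.11 and 13.80 in DR716 to DR720, 13.20, 8.90, 12.04, 9.997 and 11.29 in DV706 to DV710, 11.30, 11.03, 11.19, 11.57 and 12.71 in CR711 to CR715, and 10.97, 11.61, 11.45 and 12.20 in CV702 to CV705. It was highest in DR720, DV706 and CR715, as the fast-gene level was, and lowest in DV707 and DV709, both low in muscle genes and in sensory neuron genes (-3.65 and -3.74). In DV710, where muscle genes were as low (-1.51) but the sensory neuron level was 1.34, Pvalb was 11.29. The part of sensory neuron RNA in its values was not tested.

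The energy genes were among those that followed the fast genes, except Mb. Ckm, the muscle creatine kinase, had a lowest, median and highest value of 5.001, 6.19 and 11.51, with 11.51 in DR720, 9.90 in DV706 and 9.39 in CR715. Ampd1, the muscle AMP deaminase, spanned 3.54 to 10.16 and was highest in DV706. Mb, the oxygen store myoglobin of oxidative fibres, read 11.17, 6.78, 7.51, 5.24 and 9.25 in DR716 to DR720, 7.54, 5.40, 10.08, 5.71 and 4.93 in DV706 to DV710, 10.11, 5.73, 9.28, 9.19 and 9.90 in CR711 to CR715, and 6.32, 4.78, 7.25 and 6.65 in CV702 to CV705. Mb was at 9.19 or above in DR716, DR720 and DV708 and in 4 of 5 CR arrays, and the ranges of all 4 groups overlapped.

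**Figure D4:**
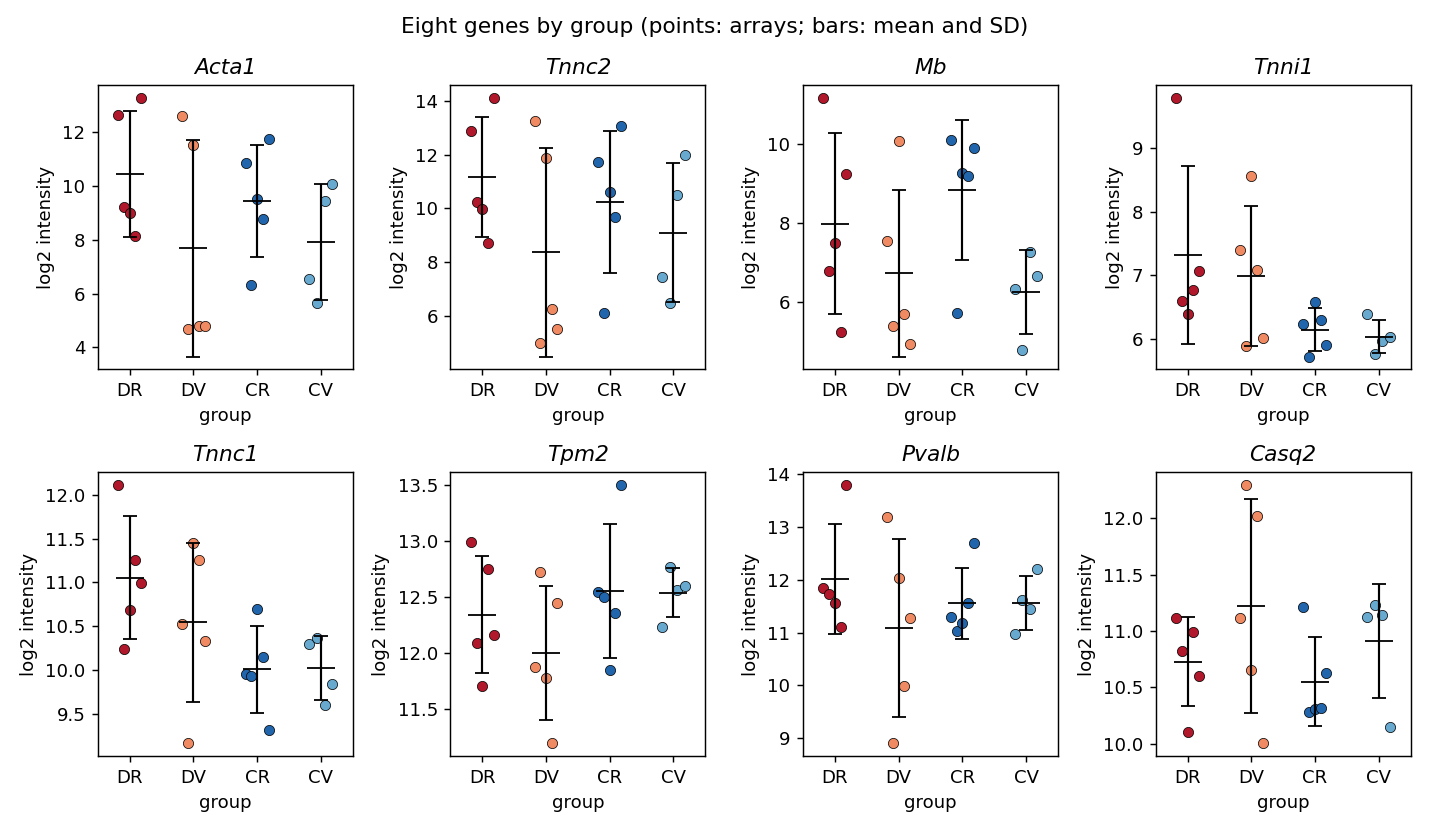
Log2 intensity of 8 muscle genes by group, with 1 point per array, the mean as a horizontal line and the SD as a bar (n = 5, 5, 5 and 4 for DR, DV, CR and CV), each panel with its own axis. Points of all groups overlap in each panel, Acta1 and Tnnc2 split DV arrays into 2 high and 3 low, and Mb is high in 4 of 5 CR arrays.

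The first comparison asked what rosiglitazone changed in diabetic mice. Muscle genes averaged higher in DR than in DV arrays for 36 of 37 tested genes, with a median log2 difference of 0.74, against -0.02 over all genes, of which 6355 of 13460 were higher. Many muscle genes were high in the same few arrays, so counts of genes, here and below, are not counts of independent observations. The median was 1.47 for the fast, 0.51 for the slow and 0.78 for the shared genes, and Casq2 was the gene that averaged lower. None passed an adjusted p of 0.05 in the limma fit over all genes, where 0% of genes passed, and 0 of 37 had an unadjusted p under 0.05, against 4.13% of all genes on the higher and 5.56% on the lower side. These differences were smaller than the spread between arrays could resolve, the 95% interval having a median half-width of 2.28.

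Acta1 averaged 10.44 ± 2.33 in DR arrays and 7.68 ± 4.02 in DV arrays (SD, n = 5 each), a log2 difference of 2.76 (SE 1.67, limma adjusted p = 0.520). Tnnc2 averaged 11.18 ± 2.23 in DR arrays and 8.38 ± 3.88 in DV arrays, a difference of 2.80 (SE 1.73, limma adjusted p = 0.524). Smpx averaged 8.88 ± 1.69 and 7.44 ± 2.22, a difference of 1.44 (SE 0.90, limma adjusted p = 0.525). Other lists lay higher in the same comparison, sensory neuron genes for 10 of 10 with a median of 1.79 and adipocyte genes for 10 of 10 with a median of 0.93, and their part in the muscle gene differences was not tested. The size moved with single arrays. The count of higher genes was 25 of 37 without DR716 and 28 of 37 without DR720, and 31 to 36 with any other array left out. The median over the muscle genes was 0.46 without DR716 and 0.48 without DR720, DV707 or DV710. This median was 1.17 without DR719 and 1.29 without DV706. At an unadjusted p under 0.05 there were 8 genes without DV706 and 2 without DV708, all higher in DR arrays. Without DV710 there was 1, lower in DR arrays. Counts with 1 array left out, here and below, have no share of all genes beside them and are not set against a background. With the 5 arrays of low sensory neuron level left out, the Smpx difference was -0.05.

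In control mice, rosiglitazone arrays averaged higher than vehicle arrays for 35 of 37 muscle genes. The median difference was 0.75, against 0.00 over all genes (6811 of 13460 higher). The fast genes had a median of 0.85, the slow genes 0.28 and the shared genes 0.90, with Casq2 and Tnnc1 averaging lower. By limma 0 genes passed an adjusted p of 0.05, again 0% of all genes, while 2 muscle genes, Myh1 and Mb, had an unadjusted p under 0.05 on the higher side and 0 on the lower, against 1.48% and 1.35% of all genes.

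Myh1 averaged 7.99 ± 3.54 in CR arrays (SD, n = 5) and 4.35 ± 1.43 in CV arrays (SD, n = 4), a difference of 3.64 (SE 1.66, limma adjusted p = 1.00). Mb averaged 8.84 ± 1.78 in CR arrays and 6.25 ± 1.06 in CV arrays, a difference of 2.59 (SE 1.21, limma adjusted p = 1.00), but the other probe set of Mb, of mean log2 intensity 4.95, differed by -0.06. Myh2 averaged 7.26 ± 2.14 and 4.55 ± 1.27, a difference of 2.71 (SE 1.33, limma adjusted p = 1.00). Adipocyte genes were also higher in CR than in CV arrays, for 10 of 10 with a median of 1.63, while 10 of 10 sensory neuron genes were lower with a median of -0.34, and their part was not tested. For all 3 muscle genes array CR712 lay within or below the CV range, at 2.82, 5.73 and 3.74. The median over the muscle genes was 0.28 without CR715, 0.43 without CV703, 0.47 without CV702, 1.24 without CR712 and 1.19 without CV705. The count with an unadjusted p under 0.05 was 0 without CR711, CR714, CR715, CV702, CV703 or CV705, and 3 without CR712, CV704, DR716 or DR719. It was 1 without CR713, DR717, DR718, DR720, DV706 or DV709.

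Diabetes was compared under vehicle. Slow genes averaged higher in DV than in CV arrays for 9 of 9 genes, with a median difference of 0.92. Their level averaged 0.22 in DV and -0.67 in CV arrays, with medians of -0.38 and -0.69, and reached 2.36 in DV708. Shared genes were higher for 11 of 14 with a median of 0.69, and fast genes for 9 of 14 with a median of 0.06. Over all 37 muscle genes 29 were higher with a median of 0.52, against 7117 of 13460 genes and a median of 0.03. By array medians, DV lay below CV arrays for the fast level (-2.26 against -0.90) and the shared level (-1.19 against -0.84). Over all measured muscle genes the median level was -1.51 in DV and -0.77 in CV arrays. No gene passed an adjusted p of 0.05 by limma (0% of all genes), and 0 of 37 muscle genes had an unadjusted p under 0.05, against 10.7% of all genes higher and 7.39% lower. The share of muscle genes was thus below that of all genes. Their differences had a median SE of 1.145, against 0.210 over all genes, so this low share does not show that their differences were small.

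Myh2 averaged 7.29 ± 1.79 in DV arrays (SD, n = 5) and 4.55 ± 1.27 in CV arrays (SD, n = 4), a difference of 2.75 (SE 1.33, limma adjusted p = 0.280). Ryr1 averaged 9.17 ± 2.07 in DV arrays and 7.44 ± 1.16 in CV arrays, a difference of 1.73 (SE 1.07, limma adjusted p = 0.370). Tpm2 averaged 12.005 ± 0.60 and 12.54 ± 0.22, a difference of -0.54 (SE 0.34, limma adjusted p = 0.372), and its probe set with the highest SD gave 0.51. The arrays with the highest Gapdh differences, DV706 and DV707, are both in this comparison. They are also in that of rosiglitazone in diabetic mice and in the interaction. The median over the muscle genes was 0.04 without DV706, 0.25 without CV703, 0.28 without DV708, 0.79 without DV709, 0.80 without CV704, 0.89 without DV710 and 1.00 without DV707. The count with an unadjusted p under 0.05 was 4 without DR716, 2 without DV707 or DV709 and 1 without CR712, CV704, DR719 or DV710. These genes averaged higher in DV arrays, except 1 of the 2 without DV707. With the 5 arrays of low sensory neuron level left out, the count was 5. In this comparison 10 of 10 sensory neuron genes averaged lower in DV arrays, with a median of -2.10, and their level ran from -3.74 to 2.20 in DV arrays and from 0.35 to 1.23 in CV arrays. Adipocyte genes were higher in DV arrays for 4 of 10, with a median of -0.12.

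Under rosiglitazone, slow genes averaged higher in the diabetic mice for 9 of 9 genes, with a median difference between DR and CR arrays of 1.05. The slow-gene level averaged 0.64 in DR and -0.32 in CR arrays, with 3.62 in DR716. Its median was lower in DR (-0.22) than in CR arrays (-0.02). Fast genes were higher for 13 of 14 with a median of 0.77, shared genes for 12 of 14 with a median of 0.61, and all muscle genes for 34 of 37 with a median of 0.80, against 6964 of 13460 genes and a median of 0.01. By array medians, DR lay below CR arrays for the fast level (-0.14 against 0.11) and the shared level (-0.59 against -0.13). Over all measured muscle genes the median level was -0.34 in DR and -0.01 in CR arrays. The limma fit passed 0 genes at an adjusted p of 0.05 (0% of all genes). At an unadjusted p under 0.05 it gave 1 muscle gene, Tnnc1, on the higher side and 0 on the lower, against 0.468% and 0.817% of all genes.

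Tnnc1 averaged 11.06 ± 0.70 in DR arrays and 10.01 ± 0.50 in CR arrays (SD, n = 5 each), a difference of 1.05 (SE 0.40, limma adjusted p = 1.00), and the arrays overlapped between 10.24 and 10.70. Tnni1 averaged 7.32 ± 1.40 in DR arrays and 6.15 ± 0.34 in CR arrays, a difference of 1.18 (SE 0.56, limma adjusted p = 1.00). Myl2 averaged 8.31 ± 2.65 and 6.58 ± 0.76, a difference of 1.72 (SE 1.14, limma adjusted p = 1.00), with 13.00 in DR716 and 6.53 to 7.69 in the other DR arrays. Sensory neuron genes were higher in DR than in CR arrays for 5 of 10 (median -0.02) and adipocyte genes for 1 of 10 (median -0.88). The median over the muscle genes was 0.10 without DR720, 0.22 without DR716 and 0.23 without CR712. The count with an unadjusted p under 0.05 was 0 without DR716 or CR715 and 2 without DR717, DR718, DR719, DV707, DV708 or DV710.

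The last comparison set the rosiglitazone difference in diabetic mice against that in control mice. This interaction was above 0 for 22 of 37 muscle genes with a median of 0.23, against 6493 of 13460 genes and a median of -0.02. It had a median of 0.61 for fast, -0.12 for slow and -0.10 for shared genes. In limma 0 genes passed an adjusted p of 0.05 (0% of all genes), and 0 of 37 muscle genes had an unadjusted p under 0.05, against 1.88% of all genes above 0 and 2.89% below. The smallest p-values belonged to Myh2 (-2.47, SE 1.83, limma adjusted p = 0.748), Pvalb (0.92, SE 0.96, limma adjusted p = 0.782) and Tnnc1 (0.53, SE 0.58, limma adjusted p = 0.791). The median ran from -0.22 without DR716 to 0.52 without DV706, and was below 0 also without CR712, DR720, DV707, DV709 or DV710. Comparisons with a shared group, such as both that use DV or both that use CR arrays, are not independent of each other.

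**Figure D5:**
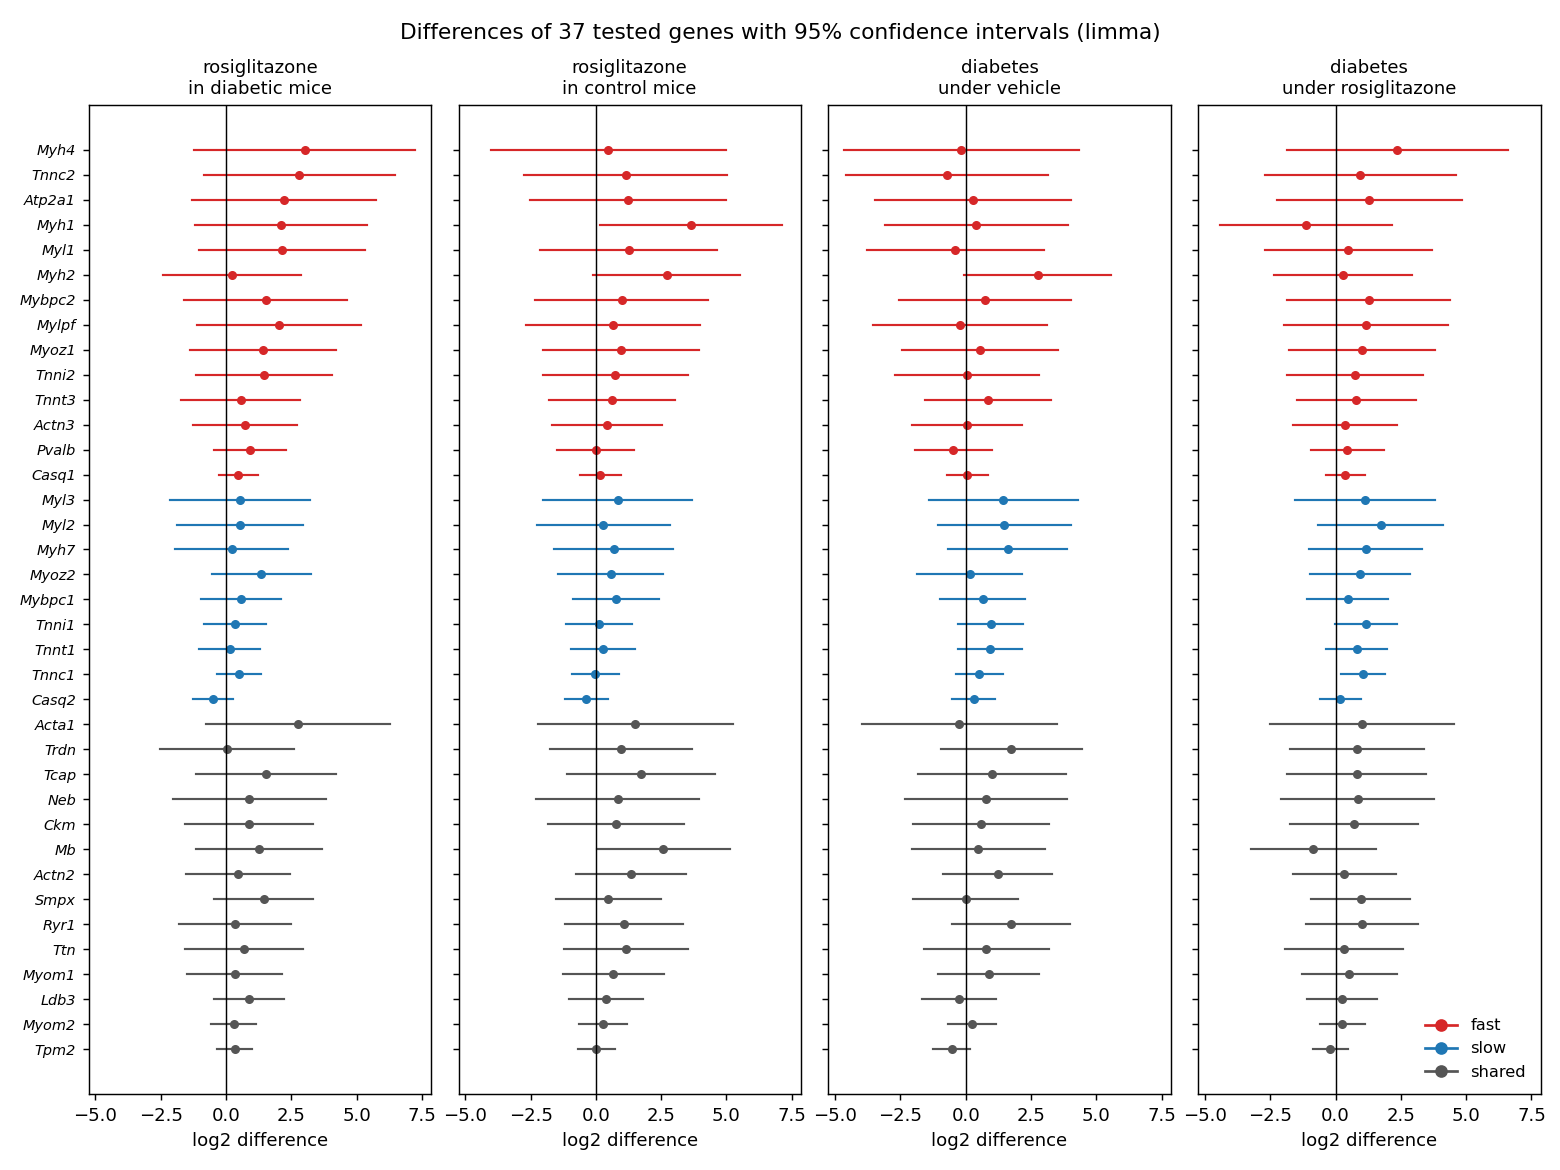
Log2 difference with its 95% confidence interval from limma for each of 37 tested muscle genes in 4 comparisons, with genes in rows and coloured by fibre class and 0 marked by a line. Most points lie right of 0, yet the intervals of nearly all genes include 0, the exceptions being Myh1 and Mb for rosiglitazone in control mice and Tnnc1 for diabetes under rosiglitazone.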

How the data were processed

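Sciatic nerve RNA of 19 mice was measured with 1 Affymetrix array each, per the labels and the series design text. The deposited table holds a linear intensity for every probe set and array, and per the submitters' processing notes the authors used RMA, with no version named. RMA gives background-corrected, quantile-normalised log2 values, and how these became linear is not given in the sources here. Intensities ran from 3.76 to 30602, with array medians of 83.3 to 101.7. No pair of arrays held identical values (0 pairs).

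The log2 of each intensity was taken, without an offset. Of 45101 probe sets, 64 controls were left out, and 34945 had 1 gene symbol in the platform annotation, 932 several and 9160 none listed. For each of 18193 genes, the probe set of highest mean was used. Genes with a mean above the 40th percentile of probe sets, a log2 intensity of 5.54, were tested, which left 13460. A limma 3.58.1 fit in R 4.3.3 with a mean per group, moderated variances and Benjamini-Hochberg adjustment over all tested genes within each comparison gave differences, SE and p. The code was tested on simulated data with known changes. No p was computed for a gene list, and lists are described by counts and medians. The p-values rest on the spread between mice, and the number of arrays limits the precision.

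The genes, their fibre classes and all other lists were chosen with earlier results of these data known. Per-array values, or the lowest, median and highest, are given for 21 genes chosen by name. In each comparison the 3 muscle genes with the smallest p are named, and of each other list up to 4 genes with the smallest p over the pairwise comparisons, with all measured genes of lists of 5 or fewer. Further genes are marked as chosen after their values were seen. Alternatives changed the filter, the probe set per gene, the normalisation, the log offset, the variance model, array weights, a Gapdh covariate and the arrays used. Groups come from the titles. Upstream sequences are from RefSeq, build GRCm38.p6. Sequences of proteins were not used here.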

Additional observations from a re-analysis of the deposited data

Results flagged for a closer look

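In 172 groups of 4 or 5 arrays, each for 1 gene or level, 15 had an array far from the others of its group by Dixon's criterion. Chance gives about 1 in 20 for a single group. The groups are not independent, since they use the same arrays, many genes vary together and the levels are means of these genes. The count is thus not set against that rate. In diabetic rosiglitazone mice, DR716 stood above the other 4 arrays for slow-fibre genes: Tnnt1 was 11.86 against 8.64 to 9.01, Tnni1 9.79 against 6.39 to 7.06, Myh7 12.40 against 6.13 to 7.38, Myl2 13.00 against 6.53 to 7.69 and Myl3 12.90 against 5.40 to 6.80. Its slow-gene level was 3.62, against -0.27 to 0.30. DR716 also had a sensory neuron level of -3.54 and a Gapdh 3' minus 5' difference of 1.75. Fast Pvalb was 13.80 in DR720, against 11.11 to 11.84 in the other DR arrays.

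In diabetic vehicle mice, DV708 stood above the rest for Tnnt1 (10.99 against 8.43 to 9.07) and Myoz2 (8.72 against 4.06 to 5.20). The fast minus slow difference of DV706 was 1.98, against -1.88 to -1.01. In control rosiglitazone mice, CR715 stood above the rest for Ldb3 (9.65 against 7.98 to 8.11) and Cacna1s (6.08 against 3.96 to 4.56), and CR712 stood below for Mb (5.73 against 9.19 to 10.11). In control vehicle mice, CV704 was high for Myh1 (6.47 against 3.33 to 3.81), and CV705 was low for Casq2 (10.15 against 11.12 to 11.23). The causes were not tested.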

How the results depend on the processing

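The median difference over the muscle genes kept its sign in all 30 alternatives of each pairwise comparison and lost it in 7 of 30 for the interaction (-0.23 to 0.53), but its size was not steady. Alternatives that left out an array of neither compared group left a pairwise median as it was, since such an array does not enter it. They are counted among the 30 but say nothing about the sign. The pooled SD of the muscle gene level within groups, 1.46, exceeded each of these medians and does not measure their stability. The lowest medians elsewhere were 0.09 with array weights for rosiglitazone in diabetic and in control mice, 0.04 without DV706 for diabetes under vehicle and 0.10 without DR720 for diabetes under rosiglitazone.

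Counts of muscle genes with an unadjusted p under 0.05 also varied. No share of all genes is given for these alternatives, so the counts are not set against a background. For diabetes under vehicle (0) they were 2 with array weights, 1 with the Gapdh covariate, 1 without DV706 and DV707 together, 5 without the 5 arrays low in sensory neuron genes, and 0 to 4 with 1 array left out. For rosiglitazone in diabetic mice (0) they were 0 to 8 with 1 array left out. For rosiglitazone in control mice (2) they were 0 with a filter at the 60th percentile, 0 with the mean of all probe sets, 1 with array weights, 1 with the Gapdh covariate, 0 without DV706 and DV707, 0 without the 5 arrays, and 0 to 3 with 1 array left out. For diabetes under rosiglitazone (1) they were 0 without the 5 arrays and 0 to 2 with 1 array left out, and for the interaction (0) 0 to 1. In none of these did a muscle gene pass an adjusted p of 0.05, the smallest being 0.152 in limma for Myh2 in diabetes under vehicle.

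Of the named genes, 4 values changed sign: Tpm2 in diabetes under vehicle to 0.51 with the probe set of highest SD, Smpx for rosiglitazone in diabetic mice to -0.054 without the 5 arrays, and Tnnc1 in the interaction to -0.34 with array weights and -0.26 without the 5 arrays. The causes were not tested. Genes that a stricter filter or a mean over probe sets moved below the filter have no value there. No paired analysis was possible because no replicate number is shared between groups. Values below the test filter, as in the low arrays of Acta1, Myh4, Myh1, Neb or Ampd1, have no reliable order or fold.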

Other observations

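Other skeletal muscle genes showed the same arrays as high. Of 48 further genes listed, 45 were measured, and their highest value fell in DR720 for 21, in DV706 for 9 and in DR716 for 8. Their level ran from -0.55 to 1.76 in DR arrays, -0.69 to 1.58 in DV arrays, -0.74 to 0.83 in CR arrays and -0.72 to -0.20 in CV arrays. Of the 31 tested, 23 were higher in DR than in DV arrays, 29 higher in CR than in CV arrays, 26 higher in DV than in CV arrays and 29 higher in DR than in CR arrays, with 0 at an unadjusted p under 0.05 in limma in each. Of all 13460 genes, 6355, 6811, 7117 and 6964 were higher in these comparisons, in that order. An unadjusted p under 0.05 was found in limma for 9.70%, 2.83%, 18.1% and 1.29% of all genes. The smallest p-values were for Fbxo32, the ubiquitin ligase atrogin, which differed by 0.52 between DV and CV arrays (SE 0.25, limma adjusted p = 0.276), Unc45b, a myosin chaperone, by 0.73 (SE 0.40), Ankrd2, a stretch-responsive protein of slow fibres, by 0.83 (SE 0.47), and Asb2 by 0.80 between DR and DV arrays (SE 0.45). Among genes chosen after their values were seen, Csrp3, a Z disc protein of slow and heart muscle, was 11.10 in DR716 and 8.96 in DV708 but 6.05 in DR720, and Sln, which inhibits the calcium pump, was 8.75, 6.81 and 3.69 in the same arrays.

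Genes of developing or denervated muscle varied one by one. Embryonic Myh3 and perinatal Myh8, chosen after their values were seen, stayed between 3.36 and 4.21 and between 3.48 and 4.87 over the 19 arrays. The level of the 13 measured genes of that list ran from 0.02 to 0.22 in DR arrays, -0.08 to 0.12 in DV arrays, -0.07 to -0.02 in CR arrays and -0.11 to -0.02 in CV arrays. Only 5 of the 13 had a mean above the filter, so this level rests largely on values near the floor. Chrna1, the acetylcholine receptor alpha subunit, also chosen after its values were seen, had a mean of 4.16, below the filter. It spanned 3.42 to 6.03 and read 6.03 in DR720 and 5.04 in both DR716 and DV708. Gadd45a, a stress and denervation gene, was lower in DV than in CV arrays by a log2 difference of -1.21 (SE 0.49, limma adjusted p = 0.246) and spanned 8.98 to 11.86, while Hdac4, Runx1 and Musk, the agrin receptor kinase of the neuromuscular junction, had larger p-values. Satellite cell genes, among them Megf10, Cdh15, Chodl and Vcam1, had levels of -0.54 to 0.42. Of these, 0 of 4 tested had an unadjusted p under 0.05 in limma in any pairwise comparison, against 1.29% to 18.1% of all genes. Cardiac genes had levels of -0.50 to 0.66, with Myl4 higher in CR than in CV arrays by 0.59 (SE 0.22, limma adjusted p = 1.00) and Tnnt2 higher in DV than in CV arrays by 1.36 (SE 0.58, limma adjusted p = 0.251), followed by Myl7 and Nppb.

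Smooth muscle genes had levels of -0.94 to 1.196. In DV against CV arrays 6 of 10 averaged higher, with a median of 0.49, where 7117 of all 13460 genes were higher. Myh11, a smooth muscle myosin, averaged higher there by 1.54 (SE 0.90, limma adjusted p = 0.346). Tagln and Myl9 were lower in DV than in CV arrays, by -0.50 (SE 0.17) and -0.64 (SE 0.26), with limma adjusted p = 0.238 and 0.246. Synpo2 averaged higher in CR than in CV arrays by 1.23 (SE 0.65, limma adjusted p = 1.00). Fuel genes that PPAR receptors are known to induce included Fabp3, a fatty acid carrier of heart and oxidative muscle. It averaged 11.95 in DR and 9.97 in DV arrays (difference 1.98, SE 0.67, limma adjusted p = 0.497). Fabp3 read 8.71, 7.67 and 9.40 in DV706, DV707 and DV709, all low in sensory neuron genes, and 12.57 and 11.50 in DV708 and DV710. DR716 and CR715, also low in sensory neuron genes, read 12.62 and 11.29, and the part of sample make-up was not tested. Plin5, a lipid droplet protein of oxidative tissues, averaged 8.49 in CR and 5.37 in CV arrays (difference 3.12, SE 1.14, limma adjusted p = 1.00). All 12 tested fuel genes, Slc25a20 and Pdk4 included, averaged higher in CR than in CV arrays, where 6811 of all 13460 genes did. In DR against DV arrays 9 of 12 were higher (6355 of all genes), and in DV against CV arrays 8 of 12 (7117). In DR against CR arrays 11 of 12 averaged lower, as did 6496 of all genes. The fuel gene level was highest in CR715 (1.45), where the adipocyte level was 3.01.

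Markers of other cells gave the following ranges over the 19 arrays. Adipocyte genes (Lep, Plin4, Lipe, Cidea among 10) had levels of -0.79 to 1.65 in DR arrays, -3.802 to 0.43 in DV arrays, -0.53 to 3.01 in CR arrays and -2.804 to 0.97 in CV arrays, with 10 of 10 higher in DR than in DV arrays and in CR than in CV arrays, where 6355 and 6811 of all 13460 genes were higher. They were higher for 4 of 10 in DV against CV arrays and for 1 of 10 in DR against CR arrays, where 7117 and 6964 of all genes were higher. Brown fat genes (Dio2, Cidea, Cox8b, Ppargc1a) ran from -1.13 to 2.50, with the top in CR715. Sensory neuron genes (Isl1, Scn11a, Trpv1, Calcb among 10) ran from -3.74 to 2.20, Schwann cell myelin genes (Drp2, Egr2, Mbp, Pllp among 7) from -0.95 to 0.35, fibroblast genes (Lum, Col3a1, Col1a1, Dcn among 8) from -0.39 to 0.33, endothelial genes (Robo4, Vwf, Erg, Kdr among 8) from -0.66 to 1.17 and macrophage genes (C1qa, Cd68, Mrc1, Adgre1 among 7) from -0.78 to 0.59. Of the red blood cell genes, Alas2 ran from 4.04 to 11.06 and was highest in DV707, and Hba-a1 from 2.79 to 3.799. The part of these cells in the muscle gene values was not tested.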
